A study of Mus musculus with 4 samples.

Results

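The set described here comprises 10 genes of the hormone-producing (enteroendocrine) cells of the gut, taken from the 21887 protein-coding genes that the RefSeq annotation GRCm38.p6 (the coordinates of mm10) places on chromosomes 1 to 19, X and Y. They were chosen by name: Gip, Gcg, Cck, Sct, Pyy, Nts, Ghrl, Sst, Chga and Neurog3, and all 10 were matched. Their surroundings were searched for binding of SHP, the small heterodimer partner encoded by Nr0b2, a nuclear receptor that has no DNA-binding domain, by chromatin immunoprecipitation and sequencing (ChIP-seq) with an SHP antibody. Chromatin came from jejunum and ileum of SHP-KO mice and of C57BL/6 wild-type (WT) mice. All of the mice were 8 to 12 weeks old, had fasted for 12 h and had then eaten normal chow for 4 h, so every group was refed. The labels describe 3 sets of DNA, each pooled from 3 mice, and the files hold 1 peak list for each genotype, with 7 peaks in knockout tissue and 5775 in WT tissue. The lists were filtered differently, read depth is unknown, and with 1 list each there was no replicate to test against. Input DNA was not analysed here.

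Enteroendocrine cells are scattered singly through the intestinal epithelium and release peptide hormones into the blood when nutrients reach the lumen. Each subtype is known for its main product, and the lineage is set up in the crypt by a brief pulse of Neurog3, a basic helix-loop-helix transcription factor. SHP is best known as a corepressor induced by bile acids through FXR in liver and ileum, and it acts on genes by joining other DNA-bound factors. The tissue was not sorted, so binding confined to rare cells and absence of binding cannot be told apart in a peak list from whole intestine. A peak list also holds no expression, so the labelled tissue could not be checked against marker transcripts.

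The promoter windows of 3 members and of 2 genes beside them that carry a peak are shown because the peaks near members lay at the neighbours. They are RefSeq sequences of the build GRCm38.p6, from 250 bases before to 50 bases after the annotated transcription start, printed 5′ to 3′ in the direction of transcription, with each CpG dinucleotide in capitals. In each pair the hormone-cell gene is given before a peak-bearing neighbour, and Gip, whose neighbour Snf8 has no such window, is given alone.
Gip, chr11:96024295-96024594, plus strand: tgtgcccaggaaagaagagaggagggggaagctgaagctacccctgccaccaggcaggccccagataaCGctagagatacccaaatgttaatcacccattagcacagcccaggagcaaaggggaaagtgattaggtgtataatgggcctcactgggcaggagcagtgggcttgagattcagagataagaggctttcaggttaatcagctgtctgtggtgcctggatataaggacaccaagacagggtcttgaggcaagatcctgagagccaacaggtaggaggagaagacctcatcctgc
Ghrl, chr6:113719862-113720161, minus strand: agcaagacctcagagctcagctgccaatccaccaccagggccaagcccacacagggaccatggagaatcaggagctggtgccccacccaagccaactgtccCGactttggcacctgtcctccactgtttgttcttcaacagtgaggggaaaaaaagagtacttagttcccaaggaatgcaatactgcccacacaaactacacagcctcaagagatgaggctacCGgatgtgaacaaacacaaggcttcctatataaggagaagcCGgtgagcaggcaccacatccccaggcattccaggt
Sec13, chr6:113740632-113740931, minus strand: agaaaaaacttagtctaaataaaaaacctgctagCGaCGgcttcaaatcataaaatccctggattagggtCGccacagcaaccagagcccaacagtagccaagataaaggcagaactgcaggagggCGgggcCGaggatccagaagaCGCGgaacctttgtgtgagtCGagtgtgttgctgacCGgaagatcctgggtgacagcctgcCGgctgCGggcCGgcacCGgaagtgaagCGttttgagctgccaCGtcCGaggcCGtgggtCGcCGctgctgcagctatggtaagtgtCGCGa
Neurog3, chr10:62132840-62133139, plus strand: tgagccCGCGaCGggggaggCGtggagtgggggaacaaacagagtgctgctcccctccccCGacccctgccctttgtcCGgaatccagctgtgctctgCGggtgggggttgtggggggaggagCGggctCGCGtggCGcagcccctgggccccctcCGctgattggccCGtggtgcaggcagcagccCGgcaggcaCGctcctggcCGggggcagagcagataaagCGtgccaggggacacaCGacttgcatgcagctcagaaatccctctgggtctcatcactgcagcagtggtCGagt
Fam241b, chr10:62111001-62111300, minus strand: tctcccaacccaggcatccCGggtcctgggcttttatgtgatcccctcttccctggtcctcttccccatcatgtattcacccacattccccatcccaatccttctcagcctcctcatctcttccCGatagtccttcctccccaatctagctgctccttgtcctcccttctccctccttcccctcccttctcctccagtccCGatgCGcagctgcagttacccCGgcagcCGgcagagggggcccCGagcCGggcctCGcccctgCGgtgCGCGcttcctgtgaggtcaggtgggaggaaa
The Gip window holds 1 CpG. The Ghrl window holds 3, against 21 in the window of its neighbour Sec13. Tatdn2, the nearer peak-bearing neighbour of Ghrl, has 34 and is not printed. Over all 10 members the windows hold 1 to 24. Neurog3 has 19, more than the 12 of Fam241b. The windows of Sec13 and Fam241b overlap a WT SHP peak, and those of Gip, Ghrl and Neurog3 do not.

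No SHP peak had its summit inside a gut hormone gene or within 1 kb of an end of one, and the peaks found nearby lay at other genes. A gene was called occupied when a peak summit lay within 5 kb of either of its ends. Of the 10 members, 1 was occupied in the WT list (10%, 95% exact binomial interval 0.253 to 44.5, counting error only), and that gene was Gip. The background was 5778 of 21887 protein-coding genes (26.4%), a share that lies inside the interval of the members. Gip was occupied only in the sense of the distance rule: its summit lay nearer to the neighbouring gene Snf8. Counting each summit for its nearest protein-coding gene alone, 0 of the 10 members were occupied, against 21.0% of all protein-coding genes. Genome-wide, 1191 of the 5778 occupied genes (20.6%) were likewise never the nearest gene of a summit within 5 kb. No member had a summit inside its body, and 0 of 10 had one within 1 kb of an end, against 20.7% of all protein-coding genes. With only 10 genes, these counts of 0 were not tested against the shares beside them.

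Distances from members to the nearest WT summit differed widely. From nearest to farthest they were 4181 bp at Gip, 18948 bp at Ghrl, 22173 bp at Neurog3, 24042 bp at Pyy and 48375 bp at Sct. Beyond 50 kb came Cck at 86375 bp, Sst at 92080 bp, Gcg at 180703 bp, Chga at 271621 bp and Nts at 2465723 bp. The median was 67375 bp over the members and 56174 bp over all protein-coding genes. The member nearest to the 5 kb limit from within was Gip, and the next outside it was Ghrl. Within 10 kb the count of members was still 1 (30.5% of all protein-coding genes), and within 50 kb it was 5 of 10 (48.2% of all protein-coding genes). It also stayed at 1, Gip, when any base of the peak could lie within 5 kb (26.9% of all protein-coding genes) or when summits inside gene bodies counted (28.3%). With peaks no lower than the list's median −log10 p it was 1 (14.8%), and with those no lower than the 75th percentile of enrichment it was again 1 (6.89%). Measured to transcription starts alone, 0 of 10 members had a summit within 5 kb, against 24.3% of the 17492 protein-coding genes with an annotated start.

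**Figure D1:**
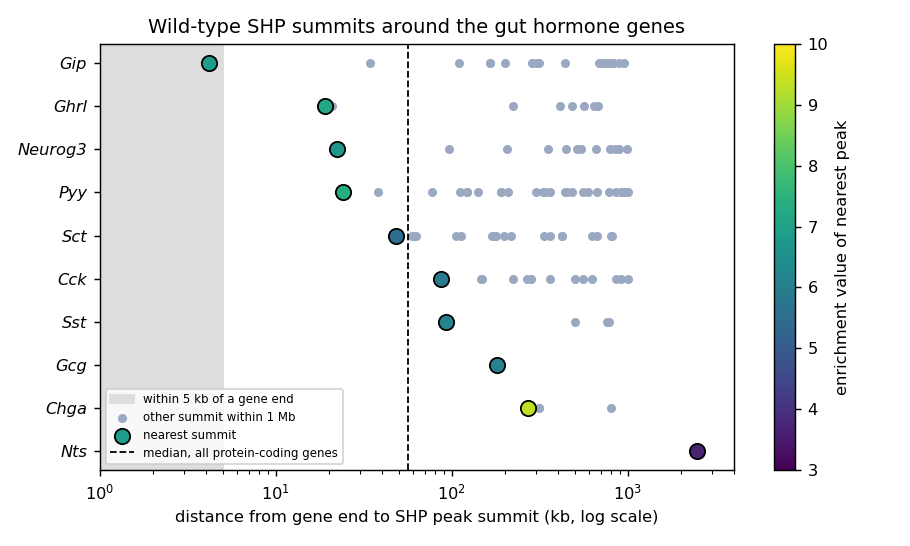
Distance in kb (log scale) from the nearer end of each of the 10 genes to WT SHP summits within 1 Mb, with the nearest summit as a large point coloured by its deposited enrichment value. Only Gip has a summit in the shaded range within 5 kb, and the nearest summit of Nts is 2465723 bp away; the dashed line marks the median over all protein-coding genes, 56174 bp.

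Gip encodes glucose-dependent insulinotropic polypeptide, the incretin of K cells. It lies at chr11:96024532-96030831 on the plus strand, and its annotated transcription start is at 96024545. The peak that made it occupied spanned chr11:96034741-96035431, with its summit 4181 bp beyond the 3′ end of Gip and 10467 bp downstream of its start. The summit lay 127 bp inside the near end of Snf8 (96034885 to 96047430), which encodes a subunit of the ESCRT-II complex of endosomal sorting. The peak's enrichment value, the authors' own measure in the seventh column of the file, was 6.87, rank 856 of 5775, and its −log10 p was 18.5. In the list, 85.1% of peaks had a lower value, and 5 other peaks carried exactly the same pair of values. A further peak, at chr11:96064540-96065569 with a value of 7.02, had its summit 34387 bp from Gip and 146 bp downstream of the start of Ube2z, a ubiquitin-conjugating enzyme. No summit lay on the upstream side of Gip within 50 kb, where Igf2bp1, an RNA-binding protein gene, is its neighbour.

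Ghrl, which encodes ghrelin, the appetite-stimulating peptide best known from the stomach, lies between genes with peaks on both sides. The gene occupies chr6:113716119-113719911 on the minus strand. On its downstream side a peak at chr6:113696646-113698137 had a value of 7.20, with the summit 18948 bp from Ghrl and 121 bp downstream of the start of Tatdn2, which encodes a TatD-type nuclease. On its upstream side a peak at chr6:113740249-113740912 had a value of 8.19, with the summit 20867 bp from Ghrl. That summit lay 97 bp upstream of the start of Sec13, a COPII coat and nuclear pore subunit. The Sec13 peak ranked 131 of 5775, the highest of the peaks within 50 kb of a member.

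Neurog3 (chr10:62133090-62134763, plus strand) had 1 summit within 50 kb. The peak, at chr10:62110602-62111202, had a value of 6.71 and its summit 22173 bp upstream of the Neurog3 start. That summit lay 51 bp downstream of an annotated start of Fam241b. Fam241b was also the only other protein-coding gene within 50 kb of Neurog3.

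Pyy, which encodes peptide YY, a satiety hormone of L cells, lies at chr11:102106676-102107832 on the minus strand beside Ppy, the gene of pancreatic polypeptide. A peak at chr11:102082033-102082775 had a value of 7.35, with its summit 24042 bp beyond the 3′ end of Pyy. The summit lay 6004 bp inside Mpp2, a membrane scaffold gene of the MAGUK family, and 150 bp upstream of another annotated start of that gene. A peak at chr11:102145299-102146052, with a value of 5.50, had its summit 37855 bp upstream of the Pyy start and 174 bp downstream of the start of Nags. Nags encodes N-acetylglutamate synthase, which makes the activator of the first urea cycle enzyme.

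Sct encodes secretin, the hormone of S cells that calls up pancreatic bicarbonate, and lies at chr7:141278329-141279174 on the minus strand. Both of its summits within 50 kb lay close to the limit of that window, at 48375 and 49053 bp, and both flanked the start of Tmem80, which encodes a transmembrane protein. Their enrichment values were 5.49 for the peak at chr7:141327016-141327833, 581 bp upstream of that start, and 4.53 for the peak at chr7:141327950-141328586, 97 bp downstream of it. Sct had 7 other protein-coding genes within 50 kb, the most of any member.

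**Figure D2:**
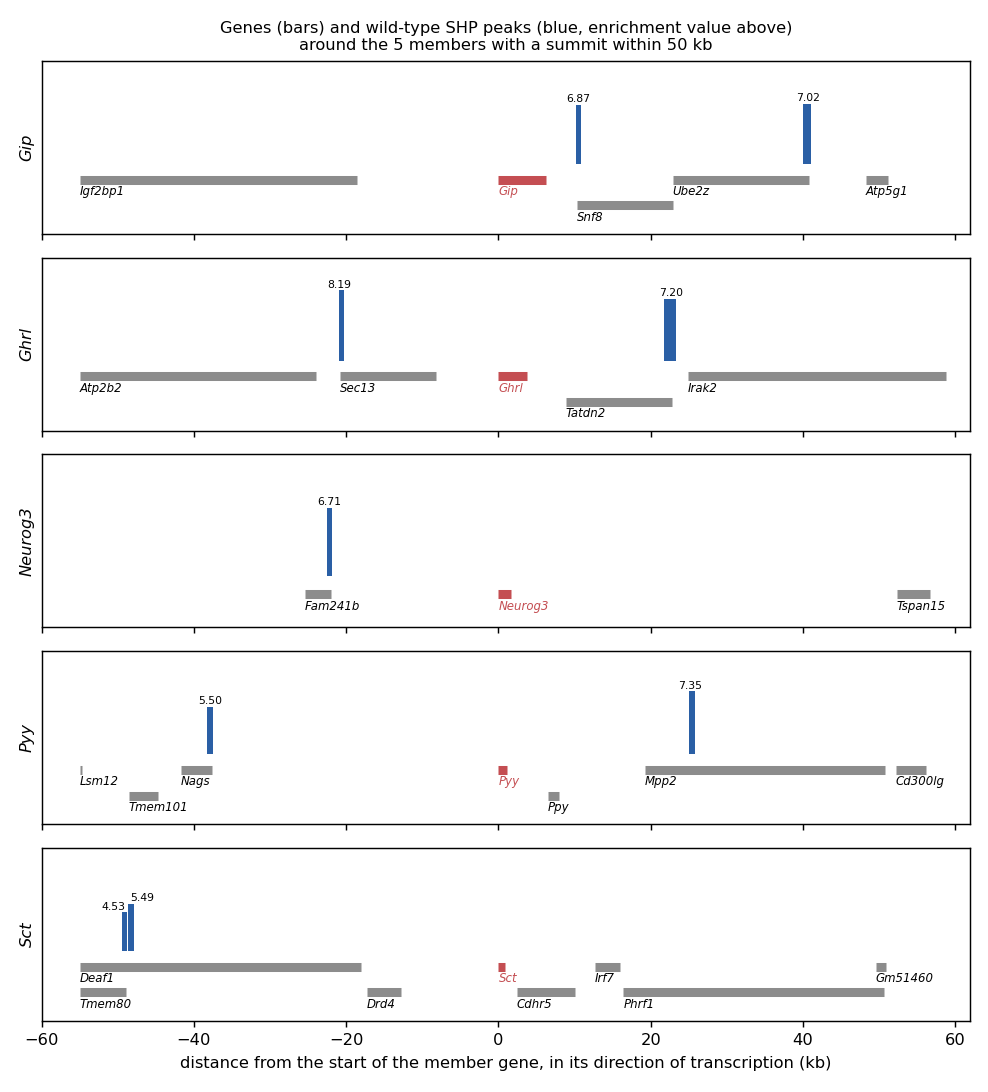
Protein-coding genes (bars, the member in red, cut at 55 kb from it) and WT SHP peaks (blue, height proportional to the enrichment value printed above) around Gip, Ghrl, Neurog3, Pyy and Sct, by distance in kb from the start of the member in its direction of transcription. Each of the 9 peaks sits over or beside another gene, and none touches a member.

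For the other 5 members no summit lay within 50 kb. Cck encodes cholecystokinin, the hormone of I cells that contracts the gallbladder, and its nearest peak, at chr9:121403195-121403684 with a value of 5.84, had its summit 3 bp downstream of an annotated start of Trak1, an adaptor in mitochondrial transport. Cck was nevertheless the second nearest protein-coding gene by gene ends, since that start lies 71470 bp from the nearer end of Trak1. Sst encodes somatostatin, the inhibitory peptide of D cells, and its nearest peak, at chr16:23983040-23983565 with a value of 6.07, lay inside Bcl6, a transcriptional repressor gene. The summit was 5444 bp from an end of Bcl6 and 2139 bp upstream of its nearest annotated start.

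Gcg encodes proglucagon, from which L cells make the glucagon-like peptides. Its nearest peak, at chr2:62664208-62664640, also had a value of 6.07, with the summit 29 bp downstream of the start of Gca, which encodes the calcium-binding protein grancalcin. The peaks nearest to Gcg and Sst had the same enrichment value and the same −log10 p of 15.4. Each shared this pair of values with 9 other peaks, a count that includes the Sst peak for Gcg and the Gcg peak for Sst. Chga encodes chromogranin A, a protein of secretory granules. Its nearest peak, at chr12:102282778-102283510, had a value of 9.30 (rank 34) and its summit 246 bp downstream of a start of Rin3, a regulator of Rab GTPases. Nts encodes neurotensin, a peptide of ileal N cells that promotes fat absorption. It had 0 summits within 1 Mb, and its nearest peak was at Kitl, the gene of the Kit ligand, with a value of 3.68. Of all protein-coding genes, 95.4% had a summit nearer than Nts did.

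In knockout tissue, which lacks the SHP antigen, no summit lay within 5 kb of any of the 10 members (0.0183% of all protein-coding genes) and none within 50 kb (0.105%). The nearest knockout summit was 1957486 bp from Gip and 4118359 bp from Pyy, both on chromosome 11. Nts, Ghrl, Sst, Chga and Neurog3 lie on chromosomes with no knockout peak. In the WT list the counts were 1 member within 5 kb and 5 within 50 kb. The knockout list is so short and so differently filtered that its lack of peaks there cannot show that the WT peaks beside the members depend on SHP.

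The 9 peaks within 50 kb of a member were compared with the WT list they belong to. Their enrichment values ran from 4.53 to 8.19 with a median of 6.87, against a median of 5.65 over all 5775 peaks (interquartile range 4.93 to 6.46), and 6 of the 9 lay above the list median. Their widths ran from 601 to 1492 bp, and 7 of 9 were narrower than the list median of 978 bp. Of the 9 summits, 8 were 1 kb or less from a protein-coding gene's end, against 4044 of 5775 (70.0%) in the list. The exception was the peak in Mpp2. In all 9 cases the nearest protein-coding gene was a gene other than the member. How often this holds for summits within 50 kb of other genes was not counted.

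**Figure D3:**
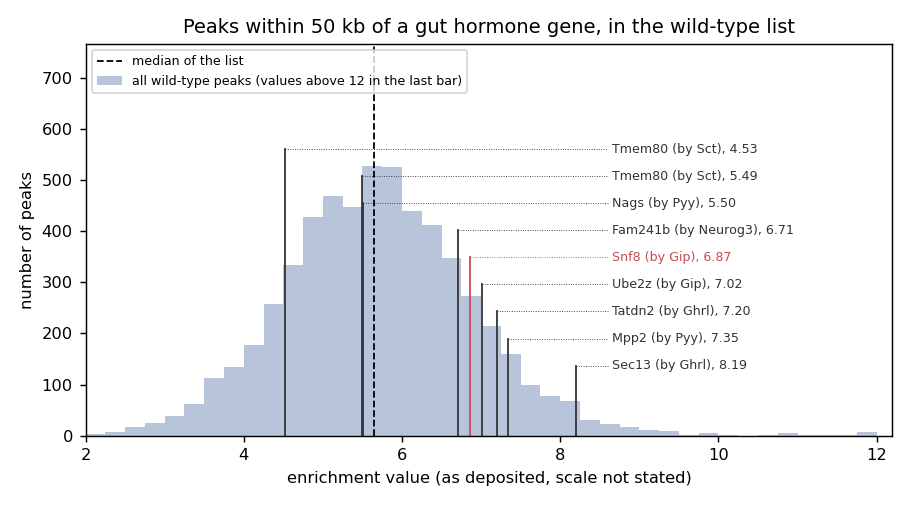
Number of WT peaks (bars) by deposited enrichment value, with a line at each of the 9 peaks within 50 kb of a member, named by the nearest protein-coding gene (line heights only separate the labels). The peak within 5 kb of Gip (red) is at 6.87, right of the list median of 5.65, and the values run from 4.53 at Tmem80 to 8.19 at Sec13.

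The members with a summit within 50 kb included each of those in gene-dense surroundings. Gip, Ghrl, Pyy and Sct have 4 or more other protein-coding genes within 50 kb, and 4 of these 4 had a summit in that range, against 65.7% of the 7553 protein-coding genes with as many neighbours. The other 6 members have 1 such neighbour each, and 1 of the 6, Neurog3, had a summit within 50 kb. The share was 43.2% of the 11850 protein-coding genes with 1 to 3 neighbours, a wider class, and 18.5% of the 2484 with 0. Over all protein-coding genes the median number of neighbours was 3, and over the members it was 1. The part of gene density in the members' counts was not tested.

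Promoter letters were then described for the genes with a RefSeq promoter window, which were 10 of 10 members and 17492 protein-coding genes in all. Where a gene had several windows, the one at its outermost start was used. The members' windows held 1 to 24 CpG dinucleotides (median 9), against a median of 13 over all windows. Among members, Sct (24), Chga (21) and Neurog3 (19) had the most and Gip (1), Ghrl (3) and Nts (3) the fewest. The 7 peak-bearing neighbours with a window, Fam241b, Mpp2, Nags, Sec13, Tatdn2, Tmem80 and Ube2z, held 12 to 35 (median 21). Snf8 had no window. The window of Mpp2, at its outermost start, overlapped no peak, and the summit in Mpp2 lay 150 bp upstream of another annotated start. The letters given for Mpp2 are therefore not those of the start at its peak. The ranges of the members and these neighbours overlap. GC content was 47 to 68.3% (median 56.3%) in members, and the median over all windows was also 56.3%. In those neighbours it was 56.3 to 66.7% (median 62.3%). Over the windows of all genes occupied within 5 kb, the medians were 24 CpG and 63.7% GC.

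Across all protein-coding genes with a window, the share occupied within 5 kb was 4.55% with 0 to 4 CpG, 13.7% with 5 to 9, 28.4% with 10 to 19 and 48.4% with 20 or more. Of the members, 3 fall in the lowest class, 2 in the next, 3 in the third and 2 in the highest. Gip, the occupied member, is in the lowest class. A window overlapped a WT peak in 0 of 10 members and in 20.8% of all windows. It did so in 6 of the 7 neighbours, but these were chosen as the genes nearest to a peak. Among the windows of all occupied genes the share was 76.3%. The part of CpG content in the members' count was not tested.

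**Figure D4:**
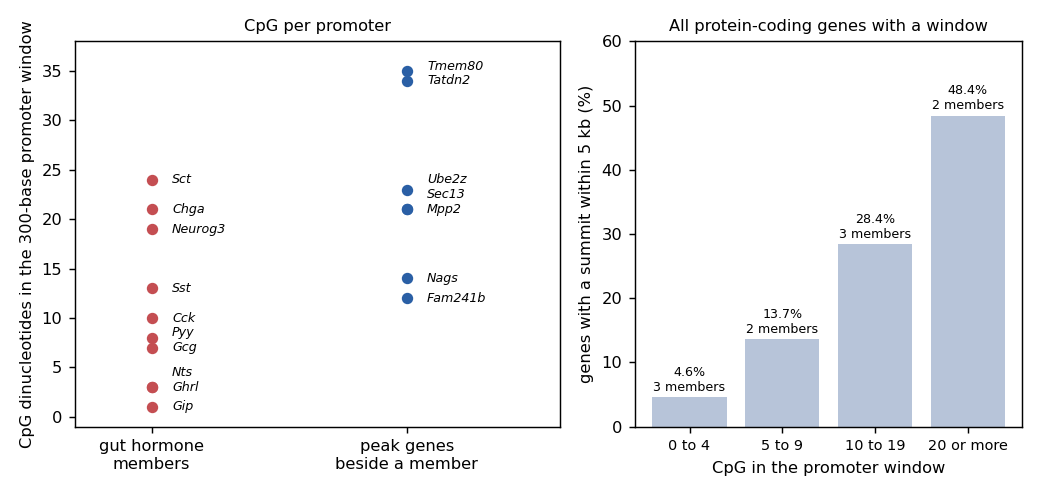
Left, CpG dinucleotides in the 300-base promoter window of each member and of the 7 peak-bearing neighbours that have a window. Right, share with a WT summit within 5 kb among all protein-coding genes with a window, by number of CpG, with the number of members in each class. Members run from 1 to 24 and neighbours from 12 to 35, and the occupied share is 4.55% in the lowest class and 48.4% in the highest.

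Short motifs were searched on both strands of the same windows. The TATA box letters TATAAA were in the windows of 3 of 10 members, Chga, Gcg and Sct, against 13.3% of all windows. They were in 0 of the 7 neighbours, which were chosen by their peaks, and in 6.03% of the windows of all occupied genes. The GC box letters GGGCGG, bound by Sp factors, were in 2 of 10 members, Chga and Sct, against 46.3% of all windows. They were in 6 of the 7 neighbours and in 70.6% of the windows of all occupied genes. The letters CACGTG, the core of the sites that TFEB binds, were in 1 member, Cck, against 1 neighbour, Tatdn2, and 7.91% of all windows. The letters CAAGGTCA, the site of LRH-1 (Nr5a2), a nuclear receptor through which SHP is known to act, were in 0 members, 0 neighbours and 1.32% of all windows. None of these motifs contains another. A match describes letters in the window and is not a binding site.

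The wider enteroendocrine programme was described through 6 lists with 91 genes, all matched. Of these 91 genes, 17 were occupied within 5 kb in the WT list (18.7%, 95% exact interval 11.3 to 28.2), against 26.4% of all protein-coding genes. By nearest gene alone the count was 12 (13.2%), against 21.0% of all protein-coding genes. The other hormone and amine genes had 1 of 9 occupied. This was Nucb2, the nesfatin precursor gene, with a peak of value 4.37 centred 103 bp downstream of its start. Tph1, which makes serotonin in enterochromaffin cells, Tac1, Insl5 and Gast were not occupied. Granins and prohormone processing had 1 of 12, Pam, the enzyme that amidates peptide hormones, whose peak had the same value of 4.37 with its summit 42 bp downstream of a start. Chgb, Scg2, Pcsk1 and Cpe were not occupied.

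Transcription factors of the lineage had 5 of 23 occupied (21.7%, 95% exact interval 7.46 to 43.7), against 26.4% of all protein-coding genes. In each of the 5 the summit was nearest to that gene. By nearest gene alone, the share of all protein-coding genes was 21.0%. Foxa2, a forkhead factor of gut endoderm, had the highest value, 7.18, with the summit 205 bp upstream of a start. Foxa1 had 5.82, with the summit 1966 bp inside an end of the gene. Cdx2, the homeobox factor of intestinal identity, had 2 summits within 5 kb, of which the higher had 5.54. Hhex, a homeobox factor known in somatostatin cells of the islet, had 5.29, and Gfi1, a zinc-finger repressor of secretory lineages, had 5.24 with the summit 4497 bp from an end. Neurod1, Insm1, Pax4, Pax6, Isl1 and Rfx6, which act with or after Neurog3, were not occupied.

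Among nutrient and bile acid receptors, 2 of 16 genes were occupied (12.5%), against 26.4% of all protein-coding genes. Both were of the taste receptor family, but Tas1r3 of the same family was listed too and was not occupied. Tas1r2 of the sweet receptor had a value of 6.22 and its summit 1211 bp inside an end, 15531 bp downstream of its start. The peak by Tas1r1 of the umami receptor had a value of 7.44, but its summit lay 83 bp from Nol9, a ribosomal RNA processing gene, and 854 bp from Tas1r1. The fatty acid receptors Ffar1 to Ffar4, Gpr119 and the bile acid receptor Gpbar1 were not occupied. Receptors for the gut hormones had 1 of 15 occupied (6.67%, against the same 26.4%). This was the neurotensin receptor Ntsr1 (5.23, summit 316 bp downstream of its start), while its ligand gene Nts was the member farthest from any summit.

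Genes of regulated secretion had 7 of 16 occupied (43.8%, 95% exact interval 19.8 to 70.1, counting error only). The share of all protein-coding genes, 26.4%, lies inside that interval. Of the 16, 3 were the nearest gene of such a summit, against 21.0% of all protein-coding genes. Vamp2, a vesicle SNARE, had the highest value, 7.54, with the summit 7 bp inside an end of the gene, and Rab3a, a GTPase of granule docking, had 6.19. Abcc8, the sulphonylurea receptor of the ATP-sensitive potassium channel, had 5.37 with the summit 139 bp inside an end. The same peak made the channel gene Kcnj11 occupied, 3710 bp away. The calls of Abcc8 and Kcnj11 are thus not independent, which the interval does not allow for. For Syt7 (5.50), Slc18a1 (4.75) and Rab37 (4.35) the nearest genes were Lrrc10b, Atp6v1b2 and Slc9a3r1. The lists were written with earlier results of these data known, and their shares describe them only.

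**Figure D5:**
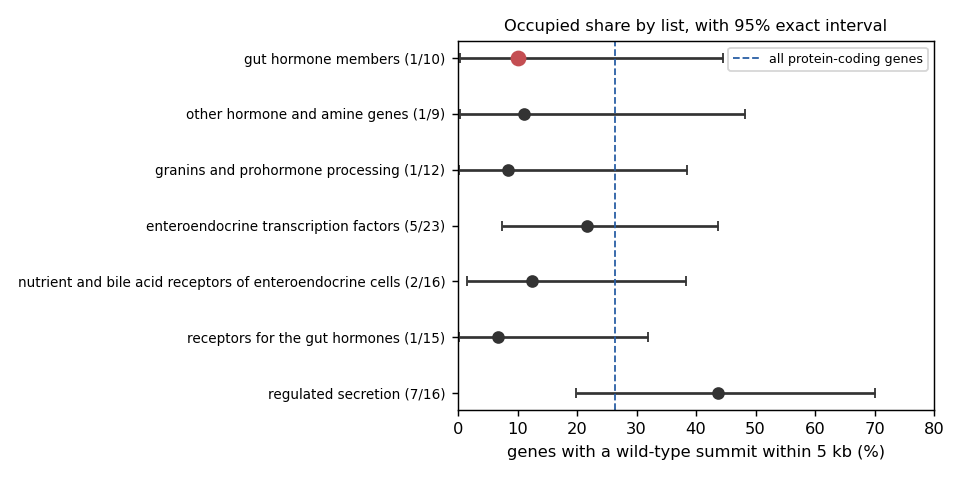
Share of genes with a WT summit within 5 kb (points, with the count of genes) for the 10 members (red) and the 6 lists, with 95% exact binomial intervals; the dashed line is the share of all protein-coding genes, 26.4%. The members are at 10%, the lists run from 6.67% for the hormone receptors to 43.8% for regulated secretion, and the dashed line lies inside each interval.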

How the data were processed

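SHP ChIP-seq peak lists of refed SHP-KO and WT intestine were used, 1 list per genotype. Per the submitters' processing notes, CASAVA 1.4 and BWA were used, on mm10. How peaks were called, whether input served as control and whether the sets were pooled is not given in the sources used here. The deposited lists have the 10 narrowPeak columns. By its name the WT list passed an irreproducible discovery rate (IDR) of 0.05, and its deposited score ran from 540 to 1000. By its name the knockout list holds overlapping peaks. The deposited signal in column 7 (enrichment value, scale not stated) and the deposited −log10 p and −log10 q served to describe, rank and filter peaks within the WT list. Read depth is unknown, so no interval from reads was made.

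Summits were converted to 1-based positions and measured to the nearer end of each RefSeq gene, and to the transcription starts of the RefSeq promoter table (32851 windows). The distance code was tested on simulated summits. Gene ends carry no strand in the gene table, so strand came from the promoter table. The named genes were the 10 members, the gene nearest to each summit within 50 kb of a member (or to the nearest summit, where there was none), and every occupied gene of the lists; genes named as not occupied, and genes beside a member, were added after their values were seen. The members and lists were chosen with earlier results of these data known, and the CpG classes, motifs and neighbour counts were added after the data were examined. No test was made, since there was 1 list per genotype. Python 3.11.15, numpy 2.4.6, pandas 2.3.3, scipy 1.17.1 (exact binomial intervals) and matplotlib 3.10.9 were used.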

Additional observations from a re-analysis of the deposited data

How the results depend on the processing

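The count of occupied members depended on distance and assignment. It was 1 of 10 as reported and with 5 of the 9 alternatives, which were 10 kb, the upper part of the list by −log10 p (from its median) or by enrichment (from its 75th percentile), any base of the peak, and gene bodies included. It was 0 within 1 kb, with the nearest gene only, and within 5 kb of a transcription start, and 5 within 50 kb. The knockout count was 0 within 5 kb and within 50 kb. For the 91 list genes the count was 17 (18.7%), and it became 36 within 50 kb (39.6%). It was 5 from the median −log10 p up (5.49%), 3 from the 75th percentile of enrichment up (3.3%), and 10 of 65 with a transcription start (15.4%). For all protein-coding genes it was 5778 (26.4%), and it became 10548 (48.2%), 3230 (14.8%) and 1507 (6.89%) under the first 3 of these settings. At a start it was 4255 of 17492 (24.3%). Both thresholds remove peaks from the list by construction. No paired analysis was possible because there was 1 list per genotype, and for the same reason no replicate could be left out.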

Other observations

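Hormone genes of the pancreatic islet, kin of the gut hormones, were chosen after the data were seen. Of Ins2, Ppy, Iapp and Ins1, 0 of 4 had a WT summit within 5 kb, against 26.4% of all protein-coding genes, and 2 of 4, Ppy and Ins2, had one within 50 kb, against 48.2%. With 4 genes, these counts do not set the islet genes apart from the rest. The nearest summits were 17297 bp from Ppy, in the same Mpp2 peak that is nearest to Pyy, 20228 bp from Ins2, with a value of 6.77 and Igf2 as the nearest protein-coding gene, 83464 bp from Iapp, 73 bp from an end of Golt1b, and 877816 bp from Ins1, nearest to Add3.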
